A study of Mus musculus with 40 samples.

Results

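Histone marks at 10 genes of the circadian clock were measured in brown adipose tissue of mice held warm or cold on a control or a fatty diet. The genes were Clock, Arntl, Per1, Per2, Per3, Cry1, Cry2, Nr1d1, Nr1d2 and Dbp, 10 of 21851 protein-coding genes. They were chosen by name as the core clock and its best known output factor, and every peak that touched the gene body or the 10 kb on either side of it (GRCm38) was taken. Over 4 marks in 8 mice these windows held 751 peaks of the 457842 listed, of which 239 were H3K4me3, 311 H3K27ac, 201 H3K4me1 and 0 H3K27me3. At the genes' own start sites lay 230 of these peaks, 101 lay at the start of a neighbouring gene, and 420 were distal, more than 1000 bp from every annotated start site.

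The mice were C57BL/6N animals, 20 weeks old, with 2 mice in each of 4 conditions. NCD mice ate the normal chow diet and HFD mice ate a high-fat diet for 12 weeks from the age of 8 weeks. Cold mice spent 24 h at 4 °C, and warm mice were kept without that step. Numbers 1 and 2 are the warm NCD animals, 4 and 5 the cold NCD ones, 7 and 8 those on HFD in the warm, and 10 and 11 those on HFD in the cold, and pairs of values below follow this order. The labels call the tissue iBAT and the methods interscapular, whereas the design text calls it inguinal. Marks were mapped by ChIP-seq, in which DNA wrapped on a modified histone is pulled down with an antibody and sequenced. The methods can be read as pooling tissue of 2 mice for an experiment, and the time of day of collection was not stated. The p-values below therefore measure the spread between these samples, and a difference in sampling time between groups cannot be told apart from the groups.

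Peak lists differed in length before any gene was considered. They held between 13517 and 24104 H3K4me3 peaks, 3224 and 40604 H3K27ac peaks, 12 and 27568 H3K4me1 peaks, and 20 and 6428 H3K27me3 peaks. Mouse 7 had the shortest list of H3K4me3, H3K27ac and H3K4me1, and its median H3K4me3 peak was 597 bp wide where the widest library had 1117 bp. The H3K4me1 lists of mice 7, 10 and 1 held 12, 18 and 592 peaks, so a missing H3K4me1 peak in them carries little information. The tissue label was checked with marker genes. An H3K4me3 peak lay at the start of 4 of 4 adipocyte markers and 5 of 6 brown adipocyte markers in all 8 mice, and at 3 of 4 endothelial markers. None of the 2 hepatocyte markers had such a peak, macrophage markers had one in at most 2 mice, 1 of 4 skeletal muscle markers in 4 mice, and 1 of 2 neuronal markers in 6 mice. In whole tissue, fewer cells with a mark and less of the mark per cell cannot be told apart.

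The clock is a feedback loop of transcription. CLOCK and ARNTL (also called BMAL1) form a dimer that binds E-boxes and switches on the Per and Cry genes, whose proteins then enter the nucleus and repress the dimer. In a second loop the nuclear receptors NR1D1 and NR1D2 (REV-ERBα and REV-ERBβ) repress Arntl through ROR elements, and DBP drives D-box genes as an output of the clock. Brown fat has a clock of its own, and Nr1d1 is known there as a repressor of the thermogenic gene Ucp1. H3K4me3 marks active or poised start sites, H3K27ac active start sites and enhancers, H3K4me1 enhancers, and H3K27me3 genes silenced by Polycomb. A trimethylated or acetylated region that spreads far along a gene gives a long peak, so breadth was read here as the summed length of the peaks that reached within 1000 bp of an annotated start site.

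Start-site sequence is shown for the member with the broadest marks at the median (Per1) and for the member with the least H3K27ac (Arntl). It is also shown for Nr1d1, which had both marks in all 8 mice, and for the members whose promoters held a clock motif (Per1, Per3, Cry1). Each run is the exon-free part of the 250 bases before a start site in RefSeq's promoter table for GRCm38.p6, read 5′ to 3′ on the strand of the gene. Capitals mark an E-box (CACGTG) in Per1 and Cry1 and D-boxes (TTATGTAA or TTACGTAA) in Per3.
Per1, chr11:69098699-69098947, plus strand: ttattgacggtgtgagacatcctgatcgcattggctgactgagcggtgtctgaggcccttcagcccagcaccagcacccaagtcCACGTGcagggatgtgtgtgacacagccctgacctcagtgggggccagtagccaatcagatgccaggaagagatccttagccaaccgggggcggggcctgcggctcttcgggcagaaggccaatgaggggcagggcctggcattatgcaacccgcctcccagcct
Nr1d1, chr11:98775378-98775627, minus strand: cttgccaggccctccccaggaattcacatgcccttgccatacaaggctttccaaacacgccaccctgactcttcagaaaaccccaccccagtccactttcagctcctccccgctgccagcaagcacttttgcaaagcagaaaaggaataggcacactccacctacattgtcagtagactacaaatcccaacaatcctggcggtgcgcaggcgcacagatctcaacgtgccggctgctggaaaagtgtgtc
Arntl, chr7:113207215-113207464, plus strand: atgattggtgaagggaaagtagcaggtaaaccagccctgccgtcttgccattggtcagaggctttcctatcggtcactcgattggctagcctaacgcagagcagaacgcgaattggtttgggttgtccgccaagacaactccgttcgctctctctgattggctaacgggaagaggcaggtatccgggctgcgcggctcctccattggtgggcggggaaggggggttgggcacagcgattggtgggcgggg
Per3, chr4:151044666-151044915, minus strand: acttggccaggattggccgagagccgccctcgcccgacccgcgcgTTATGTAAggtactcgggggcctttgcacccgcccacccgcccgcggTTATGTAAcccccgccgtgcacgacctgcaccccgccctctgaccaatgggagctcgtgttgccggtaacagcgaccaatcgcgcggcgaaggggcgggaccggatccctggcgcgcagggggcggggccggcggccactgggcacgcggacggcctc
Cry1, chr10:85185065-85185304, minus strand: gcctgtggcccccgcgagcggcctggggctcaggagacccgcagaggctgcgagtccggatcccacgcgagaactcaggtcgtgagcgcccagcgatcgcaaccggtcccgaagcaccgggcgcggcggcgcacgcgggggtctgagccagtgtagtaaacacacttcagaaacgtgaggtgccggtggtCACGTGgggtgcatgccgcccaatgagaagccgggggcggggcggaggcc

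The table had 13 entries for 9 of the members, with none for Per2. Both strands of the 250 bases were searched for 4 motifs. The E-box was found in 2 of the 13 entries, beginning 166 bases before the start site in Per1 and 60 bases before it in Cry1. It was in 6.02% of 32851 promoters of the same length. D-boxes began 205 and 158 bases before the Per3 start site, in 1 of the 13 entries, and 0.931% of all promoters held a D-box. The ROR element (ANTAGGTCA or ANTGGGTCA) and the CRE (TGACGTCA), the site bound by CREB after cyclic AMP signalling, were in none of the 13 entries and in 1.21% and 1.55% of all promoters. Members' entries were richer in G and C, with a median of 63.6% against 52.4% over all promoters. These matches describe letters in a window and were not tested as binding sites.

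H3K27ac regions away from start sites are shown for the windows where a distal peak was listed in all 8 mice. Each run is 300 bases of GRCm38.p6 on the plus strand around a peak summit, overlaps no annotated exon and held none of the 4 motifs.
Nr1d1 upstream region, chr11:98783034-98783333: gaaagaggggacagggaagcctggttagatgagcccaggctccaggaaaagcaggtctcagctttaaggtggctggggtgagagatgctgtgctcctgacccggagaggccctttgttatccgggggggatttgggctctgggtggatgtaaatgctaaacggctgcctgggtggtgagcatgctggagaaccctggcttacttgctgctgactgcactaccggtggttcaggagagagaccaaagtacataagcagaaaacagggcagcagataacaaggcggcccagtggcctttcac
Nr1d1 intragenic region, chr11:98773291-98773590: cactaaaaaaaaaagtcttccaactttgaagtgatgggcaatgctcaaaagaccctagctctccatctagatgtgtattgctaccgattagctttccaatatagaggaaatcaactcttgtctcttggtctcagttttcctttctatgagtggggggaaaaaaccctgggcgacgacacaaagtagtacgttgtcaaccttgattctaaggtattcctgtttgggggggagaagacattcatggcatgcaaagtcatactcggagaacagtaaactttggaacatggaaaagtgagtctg
Per2 intragenic region nearer the start, chr1:91445884-91446183: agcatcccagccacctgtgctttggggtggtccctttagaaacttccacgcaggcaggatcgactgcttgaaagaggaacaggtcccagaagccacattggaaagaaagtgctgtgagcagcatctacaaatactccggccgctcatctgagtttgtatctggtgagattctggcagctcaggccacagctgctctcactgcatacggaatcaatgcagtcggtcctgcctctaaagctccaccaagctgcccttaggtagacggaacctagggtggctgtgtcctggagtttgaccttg
Per2 intragenic region farther from the start, chr1:91436501-91436800: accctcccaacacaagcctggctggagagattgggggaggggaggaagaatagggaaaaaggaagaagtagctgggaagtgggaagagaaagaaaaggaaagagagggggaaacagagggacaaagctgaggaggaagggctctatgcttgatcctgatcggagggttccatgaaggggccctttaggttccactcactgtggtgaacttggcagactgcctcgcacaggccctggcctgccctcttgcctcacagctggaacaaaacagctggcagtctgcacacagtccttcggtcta
Cry2 intragenic region, chr2:92423416-92423715: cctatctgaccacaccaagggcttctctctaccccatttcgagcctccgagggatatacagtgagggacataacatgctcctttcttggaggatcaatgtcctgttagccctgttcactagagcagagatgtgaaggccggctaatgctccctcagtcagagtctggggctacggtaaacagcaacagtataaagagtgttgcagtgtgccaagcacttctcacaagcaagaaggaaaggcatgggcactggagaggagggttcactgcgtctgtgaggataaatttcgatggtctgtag

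H3K4me3 lay at the start sites of all 10 clock genes in 7 mice and of 9 of them in mouse 7, where Per2 had no peak. Thus 9 of 10 members had the mark in all 8 mice, against 43.3% of protein-coding genes. H3K27ac was patchier. All 10 members carried it in mice 1, 2, 5, 8 and 11, 7 in mouse 4, 4 in mouse 10 and 3 in mouse 7. Per1, Nr1d1 and Dbp had it in all 8 mice, 3 of 10 members against 3.75% of protein-coding genes. Without mouse 7, the 7 remaining lists gave H3K4me3 at 10 of 10 members (53.6% of genes) and H3K27ac at 4 of 10, with Per2 added (17.0% of genes). The H3K27ac list of mouse 4, which lacked Clock, Cry1 and Cry2, held 30544 peaks, and that of mouse 2, which had every member, held 28433. The part of list length in these absences was not tested.

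**Figure D1:**
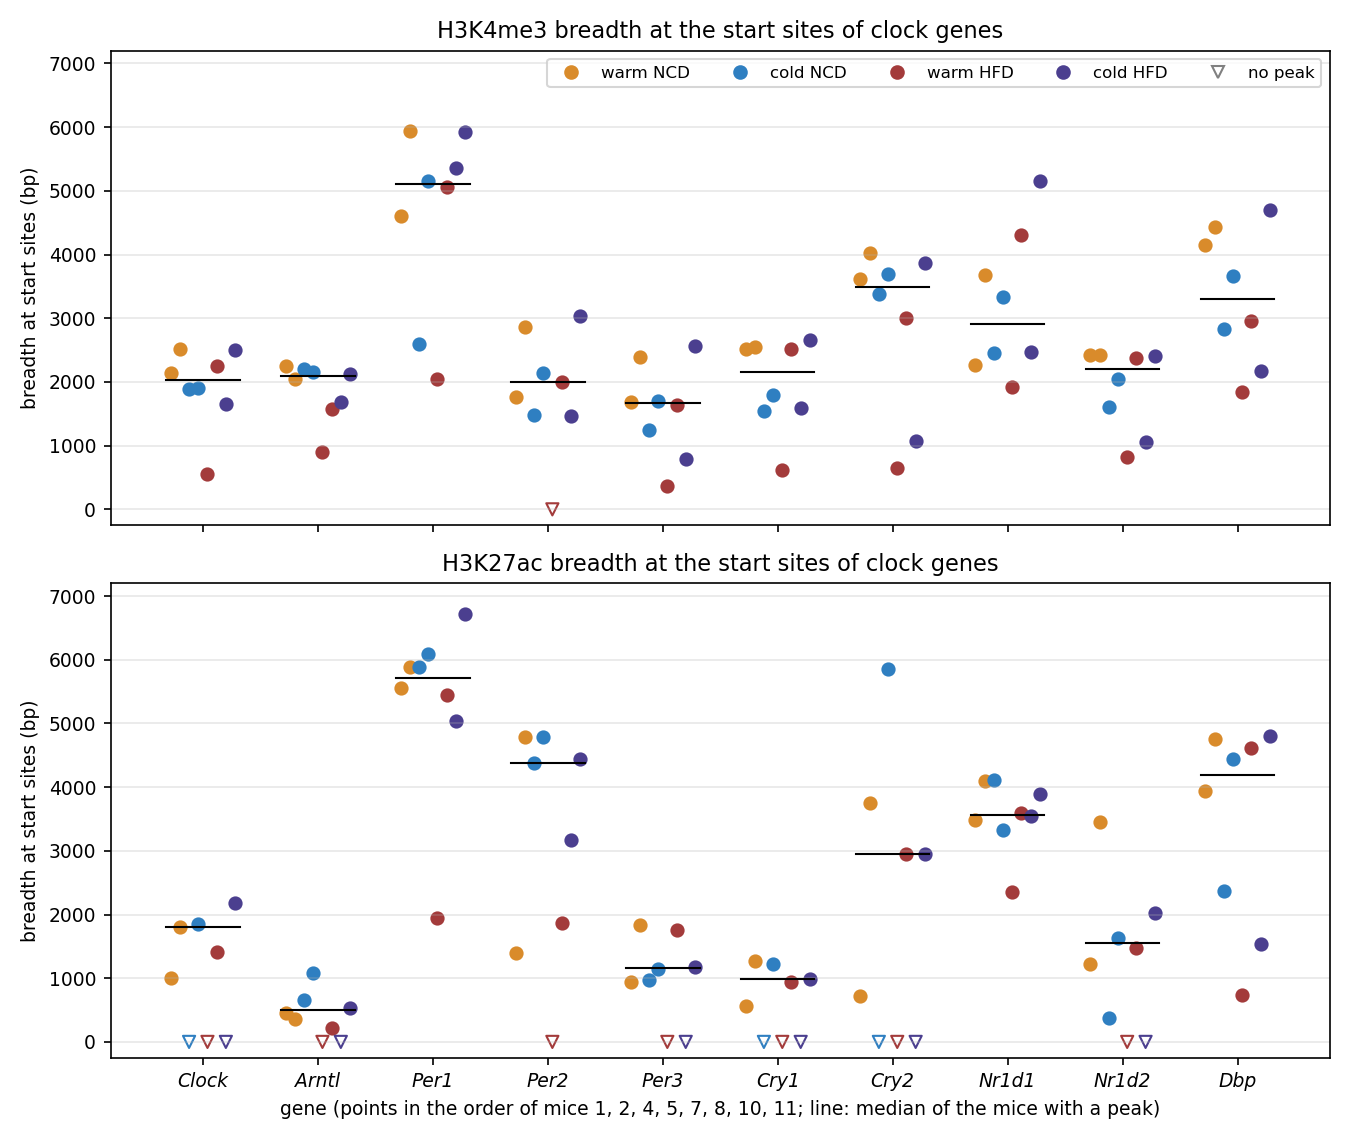
Start-site breadth of H3K4me3 and H3K27ac at each of the 10 clock genes, in bp, with 1 point per mouse; colours give the condition, and an open triangle at 0 is a list without a peak there. Per1 reached 5947 bp of H3K4me3 and 6713 bp of H3K27ac, and for H3K4me3 mouse 7 was the lowest at each of the 10 genes, with no peak at Per2. Lines are medians of the mice with a peak.

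In the order of median H3K4me3 breadth over the mice with a peak, Per1 came first with 5104.5 bp, followed by Cry2 (3497 bp), Dbp (3310 bp), Nr1d1 (2907 bp), Nr1d2 (2208 bp), Cry1 (2156.5 bp), Arntl (2087 bp), Clock (2023 bp), Per2 (2007 bp) and Per3 (1667.5 bp). Ranges over mice of neighbours in this order overlapped throughout. Of the members with H3K27ac, Per1 was again the broadest (5718 bp), then Per2 (4378 bp), Dbp (4188.5 bp), Nr1d1 (3564 bp), Cry2 (2958 bp), Clock (1802 bp), Nr1d2 (1559 bp), Per3 (1166 bp), Cry1 (983 bp) and Arntl (493.5 bp). Members differ in how many start sites are annotated, from 1 at Per2, Per3, Cry1, Nr1d1 and Nr1d2 to 4 at Arntl and Per1, and breadth sums over them. Over all genes with the mark in all 8 mice the median breadth was 1670 bp for H3K4me3 and 2065 bp for H3K27ac. Of the members, 9 belonged to that class for H3K4me3 and Per1, Nr1d1 and Dbp for H3K27ac; the medians of the others are over fewer mice.

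**Figure D2:**
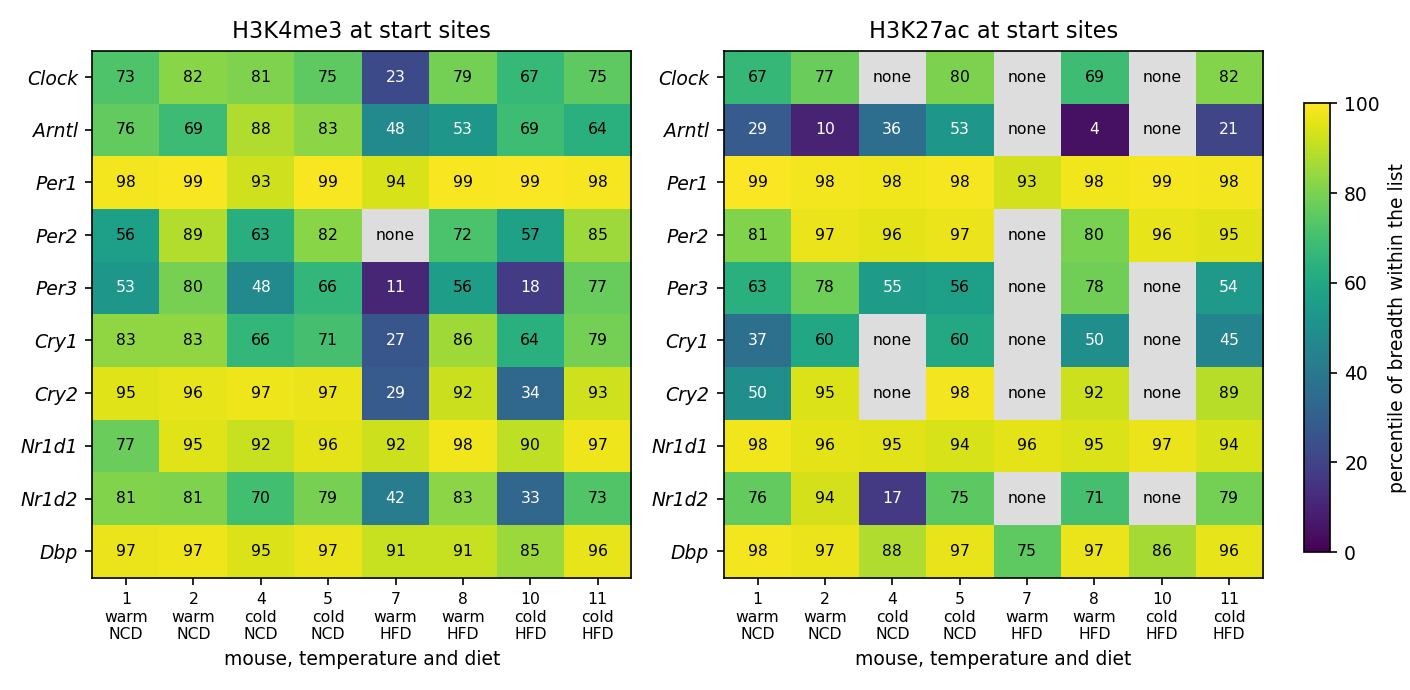
Percentile of each clock gene's start-site breadth among all genes with a start-site peak in the same list, for H3K4me3 (left) and H3K27ac (right); columns are mice, colour gives the percentile and grey cells are lists without a peak. Per1, Nr1d1 and Dbp have median percentiles of 98.7, 93.6 and 95.6 for H3K4me3 and 98.2, 95.6 and 96.4 for H3K27ac, and Arntl has 24.9 for H3K27ac.

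Clock and Arntl, which encode the activating dimer, had H3K4me3 in every mouse and H3K27ac in 5 and 6 mice. Clock (ENSMUSG00000029238.11, chr5:76209868-76304792, minus strand) had H3K4me3 breadths of 2136 and 2516 bp (warm NCD), 1895 and 1910 bp (cold NCD), 559 and 2243 bp (warm HFD) and 1655 and 2502 bp (cold HFD). Mouse 7 lay far below the other 7, which ran from 1655 to 2516 bp. Its H3K27ac peak was found in 5 mice, with a median of 1802 bp between 1000 and 2179 bp, and was missing from mice 4, 7 and 10. Arntl (ENSMUSG00000055116.8, chr7:113207465-113314126, plus strand) had H3K4me3 breadths of 2245 and 2046 bp (warm NCD), 2198 and 2153 bp (cold NCD), 899 and 1577 bp (warm HFD) and 1692 and 2128 bp (cold HFD). The NCD mice fell within a narrow range and the HFD mice spread below it, although the HFD maximum of 2128 bp lay above the NCD minimum of 2046 bp. Arntl carried little acetylation at its start, namely 457 and 367 bp (warm NCD), 652 and 1078 bp (cold NCD), 223 bp (mouse 8) and no peak (mouse 7) (warm HFD) and 530 bp (mouse 11) and no peak (mouse 10) (cold HFD). Among genes with an H3K27ac start peak in the same list its breadth stood at percentile 24.9 at the median over 6 mice, whereas its H3K4me3 breadth stood at 68.7. Measured from the first start site, where negative positions are upstream, the median outermost edges of acetylation were −878 and −390.5 bp, while those of H3K4me3 were −942.5 and 1138 bp. Gaps between peaks were ignored in these edges. A single H3K4me3 peak spanned the site in mice 2, 4, 5 and 11.

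The Period genes encode the repressors that make the oscillation possible, and they differed from one another in their marks. Per1 (ENSMUSG00000020893.17, chr11:69095217-69109960, plus strand) had H3K4me3 over 4612 and 5947 bp (warm NCD), 2595 and 5150 bp (cold NCD), 2047 and 5059 bp (warm HFD) and 5357 and 5930 bp (cold HFD). The low values came from mouse 7 and mouse 4, and the remaining 6 mice had 4612 bp or more. Its H3K27ac covered 5551 and 5891 bp (warm NCD), 5885 and 6092 bp (cold NCD), 1941 and 5449 bp (warm HFD) and 5038 and 6713 bp (cold HFD). Apart from mouse 7, every mouse had between 5038 and 6713 bp. The peaks began near the first start site, and their outermost edges reached 5287.5 bp (H3K4me3) and 5280.5 bp (H3K27ac) into the gene at the median. The downstream start site whose E-box promoter is printed above lies within these edges, which ignore gaps between peaks. Breadths stood at percentiles 98.7 and 98.2 of their lists. H3K27ac was broader than H3K4me3 at Per1 in 5 of 8 mice.

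Per2 (ENSMUSG00000055866.9, chr1:91415982-91459324, minus strand) was ordinary in H3K4me3 and broad in acetylation. The H3K4me3 breadths were 1758 and 2867 bp (warm NCD), 1488 and 2135 bp (cold NCD), 2007 bp (mouse 8) and no peak (mouse 7) (warm HFD) and 1459 and 3028 bp (cold HFD). H3K27ac covered 1399 and 4790 bp (warm NCD), 4378 and 4787 bp (cold NCD), 1860 bp (mouse 8) and no peak (mouse 7) (warm HFD) and 3167 and 4440 bp (cold HFD). Mice 1 and 8, both warm, had the shortest of these 7 acetylated stretches, whereas mouse 2, also warm, had the longest, so the temperatures overlapped. H3K27ac was the broader mark in 5 of the 7 mice with both, and reached 4095 bp into the gene where H3K4me3 reached 1301 bp, at the medians. Per3 (ENSMUSG00000028957.12, chr4:151003652-151044665, minus strand) had the shortest median H3K4me3 of the members, between 371 bp in mouse 7 and 2564 bp in mouse 11. Its H3K27ac was listed in 6 mice and ran from 938 to 1843 bp.

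The Cry genes encode the cryptochromes, partners of the PER proteins in repression. At Cry1 (ENSMUSG00000020038.10, chr10:85131700-85185064, minus strand) H3K4me3 covered 2522 and 2553 bp (warm NCD), 1547 and 1795 bp (cold NCD), 614 and 2518 bp (warm HFD) and 1587 and 2661 bp (cold HFD). Leaving aside mouse 7, the lowest values belonged to the cold mice 4, 5 and 10, but the cold mouse 11 had the highest of all. H3K27ac at Cry1 was found in 5 mice, between 557 and 1266 bp, and stayed close to the start. Cry2 (ENSMUSG00000068742.11, chr2:92403646-92434043, minus strand) had H3K4me3 over 3612 and 4032 bp (warm NCD), 3382 and 3700 bp (cold NCD), 646 and 3012 bp (warm HFD) and 1074 and 3868 bp (cold HFD). Of the 8 values 6 were above 3000 bp, and the low ones were those of the HFD mice 7 and 10. Its H3K27ac was absent from mice 4, 7 and 10 and ranged from 728 bp in mouse 1 to 5860 bp in mouse 5, the widest spread among the members. The cold NCD mice 4 and 5 thus stood at opposite ends for this gene.

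The receptors of the second loop differed in how constant their acetylation was. Nr1d1 (ENSMUSG00000020889.11, chr11:98767932-98775333, minus strand) had H3K4me3 over 2269 and 3673 bp (warm NCD), 2453 and 3336 bp (cold NCD), 1914 and 4315 bp (warm HFD) and 2478 and 5151 bp (cold HFD). The warm HFD pair held the lowest and the second highest value. Its H3K27ac covered 3481 and 4103 bp (warm NCD), 4111 and 3332 bp (cold NCD), 2347 and 3587 bp (warm HFD) and 3541 and 3886 bp (cold HFD). Even in mouse 7, with 3224 peaks in its list, the acetylated peaks summed to 2347 bp, and the other 7 mice kept within 3332 and 4111 bp. Fold enrichment, the height of the peak over its local background, ran from 12.0 to 34.8 for H3K27ac. The lowest percentile within a mouse's own list was 95.5. At the medians acetylation ran from −2774.5 to 1186.5 bp around the start and H3K4me3 from −1124.5 to 1903.5 bp, so the one reached farther upstream and the other farther into the gene. Nr1d2 (ENSMUSG00000021775.11, chr14:18204054-18239127, minus strand), its paralogue, had H3K4me3 over 2425 and 2431 bp (warm NCD), 1612 and 2041 bp (cold NCD), 817 and 2375 bp (warm HFD) and 1060 and 2410 bp (cold HFD). Mice 7 and 10 were the low ones. Its H3K27ac was listed in 6 mice, with a median of 1559 bp, from 375 bp in mouse 4 to 3454 bp in mouse 2.

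Dbp (ENSMUSG00000059824.12, chr7:45705088-45710203, plus strand), a gene of 5116 bp, had both marks in every mouse. H3K4me3 covered 4158 and 4435 bp (warm NCD), 2825 and 3670 bp (cold NCD), 1849 and 2950 bp (warm HFD) and 2170 and 4700 bp (cold HFD). H3K27ac covered 3941 and 4754 bp (warm NCD), 2364 and 4436 bp (cold NCD), 734 and 4613 bp (warm HFD) and 1531 and 4805 bp (cold HFD). Mice 1, 2, 5, 8 and 11 had 3941 to 4805 bp of acetylation, and mice 4, 10 and 7 had 2364, 1531 and 734 bp. At the medians H3K4me3 ran from −941.5 to 2625 bp and H3K27ac from −1071 to 3573 bp around the first start site. H3K27ac was the broader mark in 4 of 8 mice.

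H3K4me1 at a start site was rare. It was listed at Per1 and at Nr1d1 in the same 4 mice (2, 4, 5 and 11), at Cry2 in mice 2 and 8, at Per2 in mouse 8 and at the other 6 members in no mouse. Mice 7 and 10 had no H3K4me1 peak in any member window, whose H3K4me1 lists hold 12 and 18 peaks in all. H3K27me3 was in no member window in any mouse, and with lists of 20 to 6428 peaks this was at most not detectable at the depth of these libraries.

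**Figure D3:**
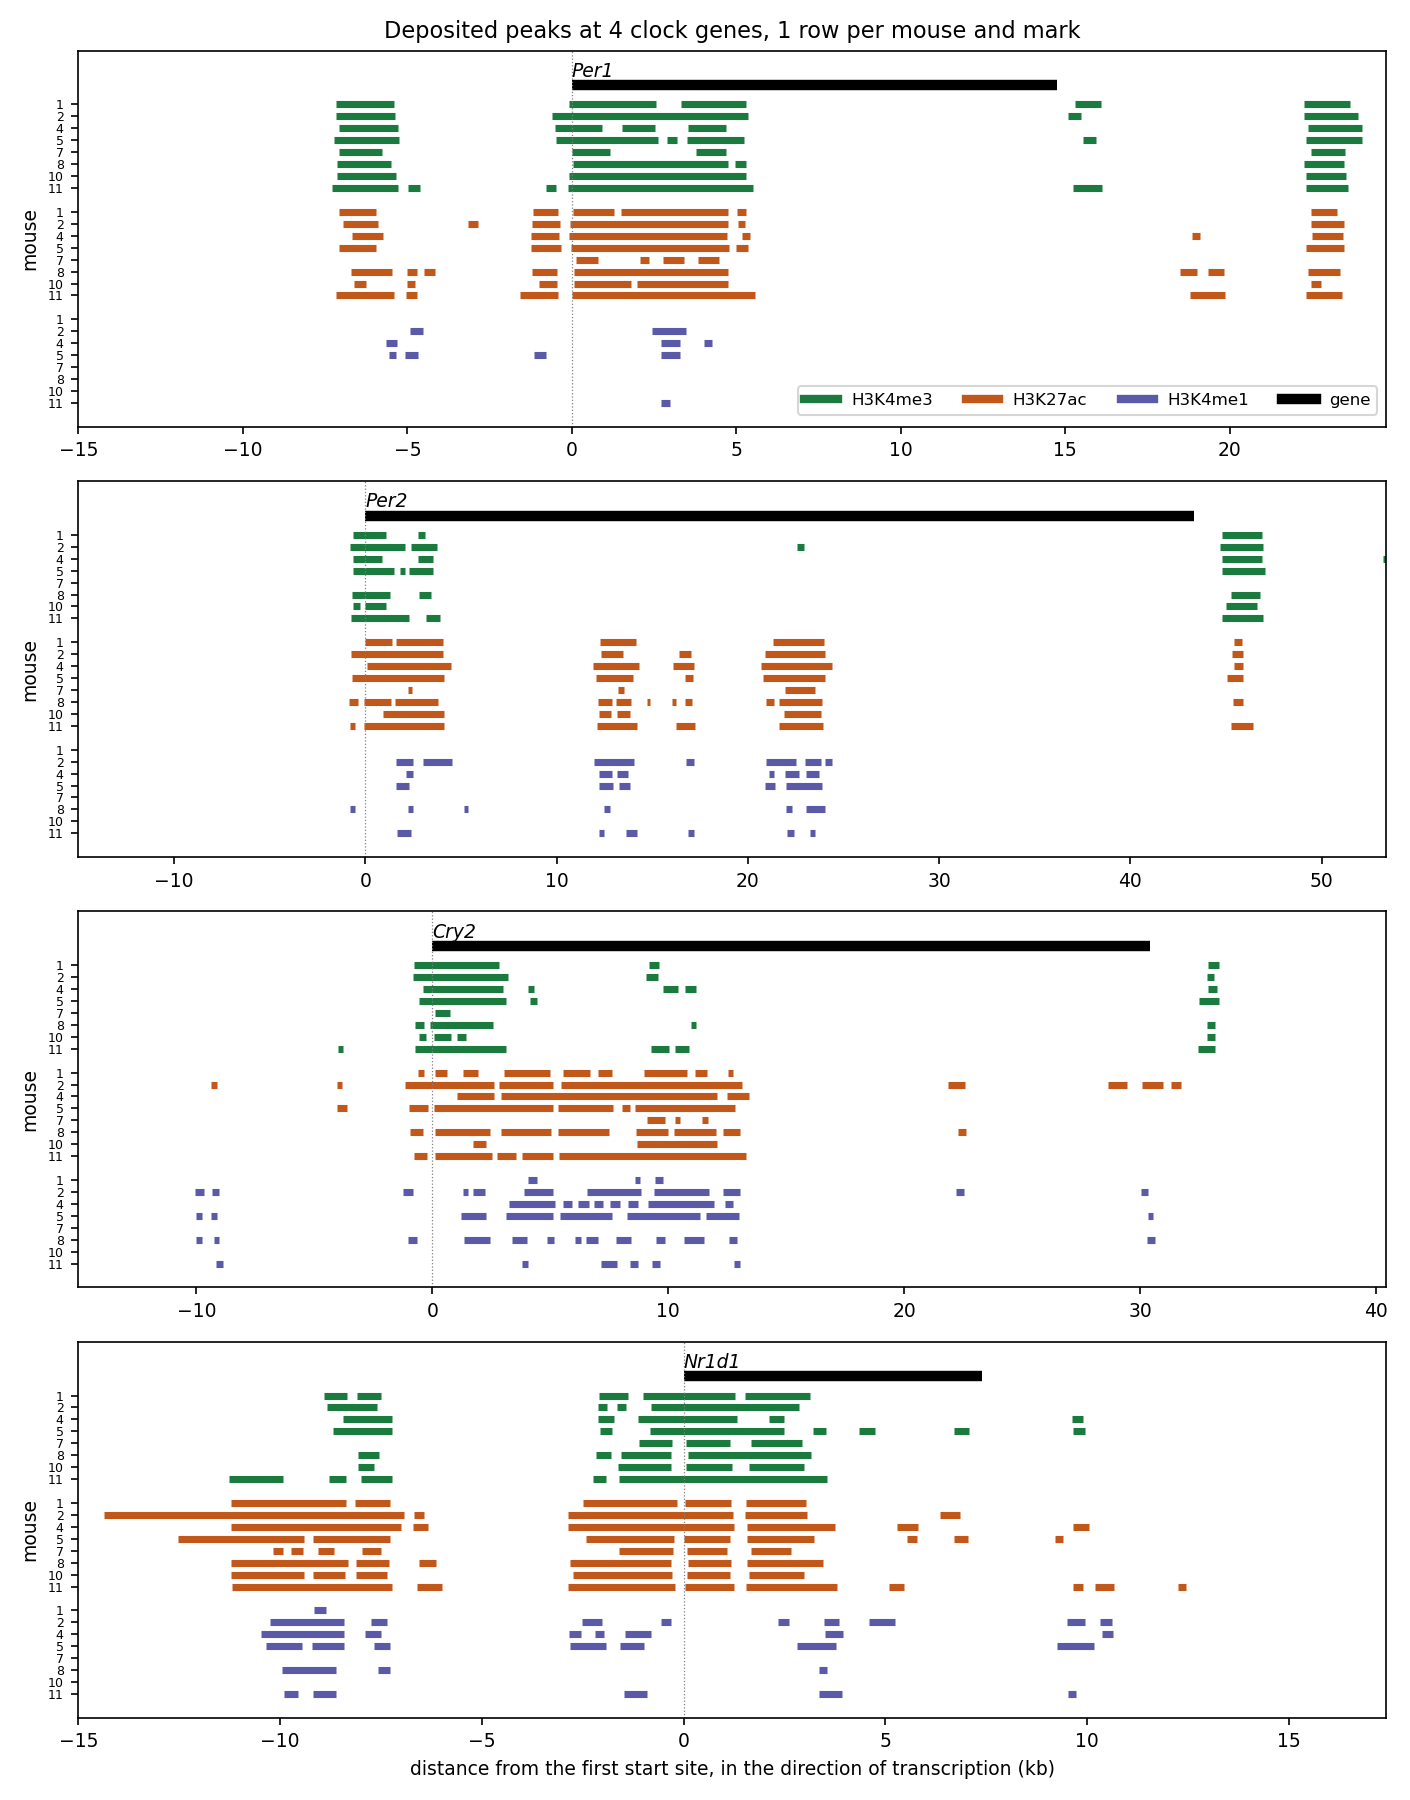
Peaks of H3K4me3, H3K27ac and H3K4me1 in the windows of Per1, Per2, Cry2 and Nr1d1, with 1 row per mouse and mark; the horizontal axis is the distance in kb from the first annotated start site in the direction of transcription. All 8 mice had an H3K27ac peak that overlapped the block upstream of Nr1d1 and the blocks inside Per2 and Cry2, with lengths that differed between mice.

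Distal H3K27ac, the usual mark of enhancers, was merged over mice into 44 regions in the member windows. Each region was the union of distal peaks over mice, and any overlapping peak counted as presence in a mouse. Nr1d1 had 9, Cry2 8, Per1 6, Arntl and Per2 5 each, Nr1d2 4, Cry1 and Dbp 3 each, Per3 1 and Clock 0. Per 100 kb of window this was 32.8 regions at Nr1d1, 17.3 at Per1 and 15.9 at Cry2 against 3.95 at Arntl and 0 at Clock. In 13 of 44 regions (29.5%) acetylation was present in at least 6 mice, and the share over all 36149 distal regions of the genome was 18.4%. All 8 mice had it in 8 regions (18.2%, genome 3.95%) and a single mouse in 15 (34.1%, genome 37.8%). H3K4me1 in at least 1 mouse overlapped 27 of the 44 (61.4%, genome 46.7%). Some of these regions were covered in several mice by a long peak that started at the start site. Among those counted in all 8 mice, regions at Per1, Per2 (1563 to 4058 bp inside) and Dbp held a distal peak in 1, 3 and 3 mice. The genome share in all 8 mice by distal peaks alone was not computed. Counting distal peaks alone, 8 regions (18.2%) were present in at least 6 mice, where the share over the genome was 14.7%.

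**Figure D4:**
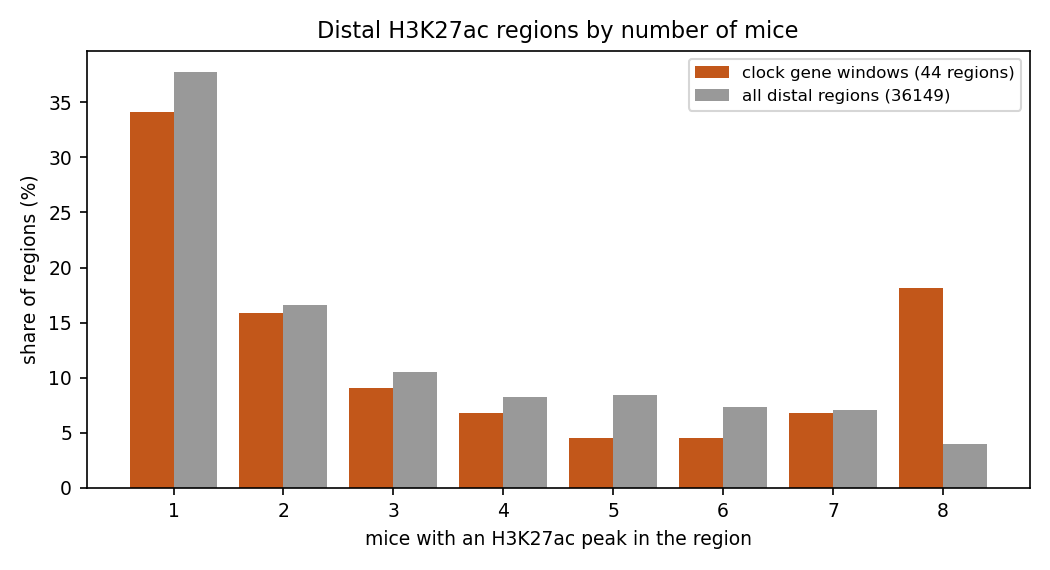
Share of distal H3K27ac regions, in percent, by the number of mice with acetylation there; bars compare the 44 regions of the clock gene windows with all 36149 distal regions. Regions in all 8 mice made up 18.2% of the first set and 3.95% of the second, and regions in 1 mouse 34.1% and 37.8%. These counts include long peaks that reach in from a start site. By distal peaks alone, 18.2% and 14.7% were present in at least 6 mice.

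The 8 regions with distal peaks of their own belonged to 5 genes. Upstream of Nr1d1 a region of 7437 bp as a union over mice (chr11:98782270-98789706) lay between −14373 and −6937 bp. A peak overlapped it in 8 mice, and H3K4me1 did in the 6 mice whose lists held more than 18 peaks of that mark. In the whole Nr1d1 window, start site included, H3K27ac peaks covered 4768 bp in mouse 7 and 8315 to 13825 bp in the other mice. Fold enrichment over all H3K27ac peaks of the region ran from 3.27 to 19.7. The strongest of these peaks in each mouse stood at percentile 85.7 or higher of its list. H3K4me3 was also listed within the region, between −8903 and −7225 bp, in 7 mice. A second region of Nr1d1, 1518 to 3803 bp inside the gene (chr11:98771530-98773815), was present in 8 mice with fold values from 8.11 to 31.7. Per2 held acetylation 11917 to 14288 bp (chr1:91445036-91447407) and 20695 to 24391 bp (chr1:91434933-91438629) inside the gene, each in 8 mice, with H3K4me1 in mice 2, 4, 5, 8 and 11. The strongest peak in each stood at a median percentile of 90.5 and 94.7 of its list, and that at the Per2 start at 92.7. Cry2 had the longest region, a union of 10666 bp across its introns and exons from 2738 to 13403 bp inside the gene (chr2:92420640-92431305). A peak overlapped it in 8 mice, and H3K4me1 did in 6. In the whole Cry2 window, H3K27ac peaks covered 1224 bp in mouse 7, 3967 bp in mouse 10 and 7647 to 17113 bp in the other mice.

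The remaining 3 were seen in 6 or 7 mice. Arntl, with little acetylation at its start, had acetylated regions far inside the gene. A region 52188 to 54179 bp from the start (chr7:113259653-113261644, intron) was present in 6 mice and another 101230 to 104396 bp from it (chr7:113308695-113311861, overlapping an exon) in 7, with fold values up to 9.76 and 14.6. Distal H3K4me1 formed 18 of its 59 regions over the members at Arntl, whose window of 126.662 kb was the longest. Per 100 kb this was 14.2 regions, against 29.2 at Nr1d1 and 19.9 at Dbp, and Cry2 had 47 distal H3K4me1 peaks over mice where Arntl had 43. An Arntl region 42066 to 43773 bp inside the gene had H3K4me1 in 5 mice and H3K27ac in none. Downstream of Per1 a region 22337 to 23476 bp from the first start site (chr11:69117554-69118693) was outside the gene, present in 7 mice and without H3K4me1, and H3K4me3 was listed there in 8 mice. It lay 1711 bp from the nearest annotated start site of any gene, so it cannot be assigned to Per1 from position.

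Other regions in at least 6 mice continued peaks of the start site. These were at Per1 (2086 to 2363 bp inside, 8 mice), Per2 (1563 to 4058 bp, 8 mice), Cry2 (1047 to 2621 bp, 7 mice), Dbp (2038 to 3706 bp, 8 mice) and Nr1d2 (1055 to 1521 bp, 6 mice). In the 300 bases around the summits of the 44 regions, an E-box occurred once at Arntl (3.94% of all distal regions), a D-box once at Nr1d2 (1.31%), a ROR element once at Cry2 (1.97%) and a CRE once at Per2 (0.246%). The Arntl E-box was in an intronic region present in 4 mice. The Per2 CRE was in a region seen in mouse 8.

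Neighbouring genes contributed 101 of the 751 peaks. Upstream of Per1, between −7278 and −5258 bp, 8 mice had H3K4me3 at the start of Vamp2 and 7 had H3K27ac. Near Per2, H3K4me3 was at Hes6 in 7 mice with H3K27ac in 6 of the lists, and at 1700020N18Rik in 1. Downstream of Cry1, Mterf2 carried H3K4me3 in every mouse and H3K27ac in 5, and Mapk8ip1 near Cry2 had H3K4me3 in 7. Around Dbp, Car11 had H3K4me3 in 7 mice, and the starts of Rpl18 and Sphk2 shared peaks of H3K4me3 in 8 mice and of H3K27ac in 7. These peaks entered no breadth of a clock gene.

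The design asks whether 24 h of cold, the fatty diet or their combination altered the marks on these genes. Breadths of the 4 cold and 4 warm mice overlapped at each member for both marks, as did those of the 4 HFD and 4 NCD mice. The share of all genes with such overlap was not counted, so this cannot be read as particular to the members. No mouse had a smaller breadth than mouse 7 at any member, so warm could not lie wholly above cold, nor HFD above NCD. Differences were fitted with limma on log2 breadth across all genes with a peak in all 8 mice, after each library was centred on its median, and p-values were adjusted over all of them. For H3K4me3, cold against warm gave 0 calls among 9452 genes (0%) and 987 with an unadjusted p under 0.05. Among the 9 members fitted 0 were called and 1 had such an unadjusted p. Of these 9, 7 were higher and 2 lower in the cold (median 0.09 on the log2 scale), but 1 was higher and 8 lower once the log length of the list was a covariate, 2 of 10 were higher without mouse 7, and 4 of 9 without mouse 11. The 2 smallest member p-values were those of Arntl and Clock, and only Arntl had an unadjusted p under 0.05. Arntl differed by 0.29 on the log2 scale (SE 0.114, adjusted p = 0.464, limma) and Clock by 0.23 on the log2 scale (SE 0.231, adjusted p = 0.695, limma), and the Clock difference changed sign without mouse 7.

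HFD against NCD gave 1 call among 9452 genes (0.0106%), 1783 with an unadjusted p under 0.05, and 0 calls among the 9 members, of which 2 had such an unadjusted p. The members had a median of −0.34 on the log2 scale, with 2 higher and 7 lower, where all genes had −0.00; with list length as a covariate 7 were higher and 2 lower, and without mouse 7 the median was −0.11. Arntl differed by −0.38 on the log2 scale (SE 0.114, adjusted p = 0.172, limma) and Cry2 by −0.98 on the log2 scale (SE 0.342, adjusted p = 0.204, limma), both lower on HFD. With list length as a covariate these became −0.19 and −0.099. The breadths given above show the overlap, with 2046 to 2245 bp on NCD and 899 to 2128 bp on HFD at Arntl, and 3382 to 4032 bp against 646 to 3868 bp at Cry2. Mice 7 and 10 hold the low HFD values at Cry2, and mice 7, 8 and 10 those at Arntl. Mice 7 and 10 also have the shortest H3K4me3 lists (13517 and 17195 peaks), whose part in the result was not tested beyond these fits. The interaction of temperature and diet gave 0 calls among 9452 genes (0%) with 422 unadjusted, and 0 among the members. Its smallest member p was that of Per1, 0.56 on the log2 scale (SE 0.444, adjusted p = 0.857, limma). Leaving out mouse 8 left mouse 7 alone for warm HFD, so calls of that fit rest on 1 mouse. The members' median interaction was then 0.56 on the log2 scale (0.10 with all mice), and that of all genes 0.003.

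**Figure D5:**
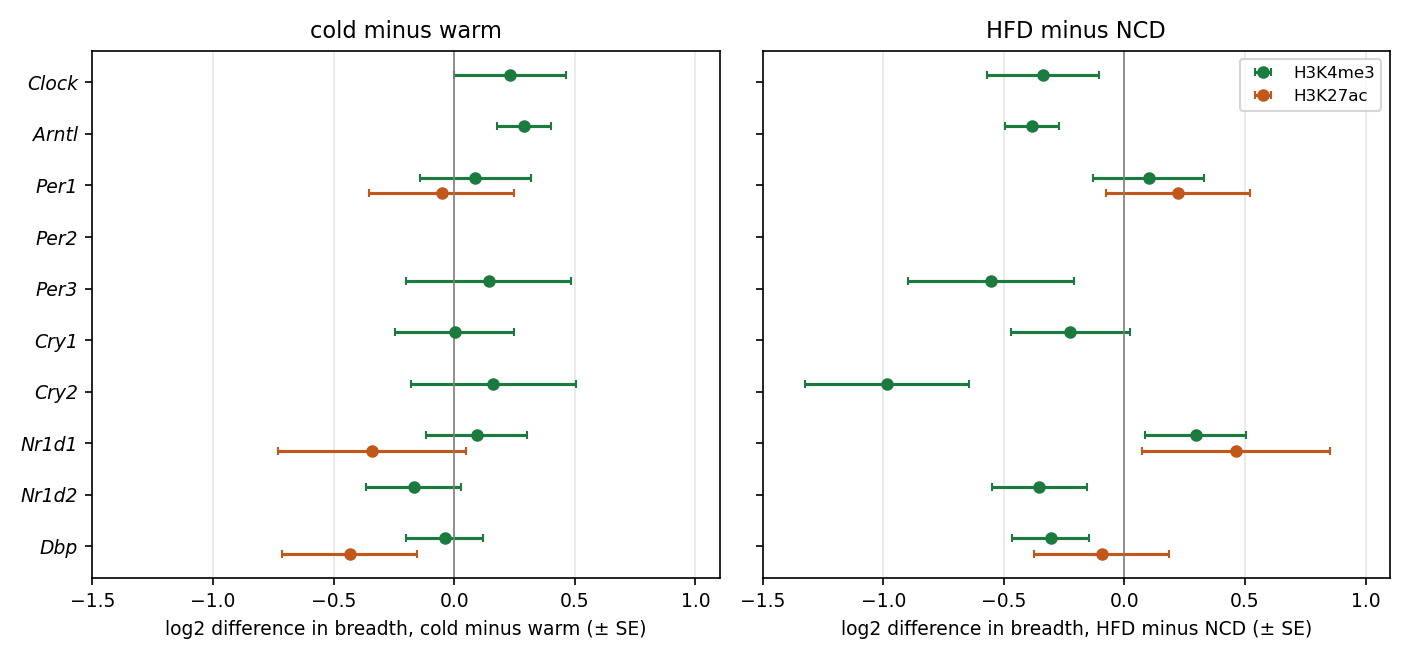
Fitted log2 differences in start-site breadth with their SE for each clock gene tested, for cold against warm and HFD against NCD and both marks; the vertical line marks no difference. H3K4me3 differences for HFD lie below 0 at 7 of 9 genes when libraries are centred, and at 2 of 9 with list length as a covariate.

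For H3K27ac, 3 members (Per1, Nr1d1 and Dbp) had a peak in all 8 mice and could be fitted among 819 genes. Cold against warm gave 2 calls (0.244%; 67 unadjusted) and 0 among the members. The 3 were lower in the cold after centring (median −0.34) and higher without it (median 0.16). Dbp differed by −0.43 on the log2 scale (SE 0.279, adjusted p = 0.785, limma) and Nr1d1 by −0.34 on the log2 scale (SE 0.389, adjusted p = 0.871, limma), and both changed sign without centring. HFD against NCD gave 1 call (0.122%; 53 unadjusted) and 0 among the members, 2 of which were higher with a median of 0.22. Without centring, 0 of 3 were higher. Nr1d1 differed by 0.46 on the log2 scale (SE 0.389, adjusted p = 0.786, limma) and Per1 by 0.22 on the log2 scale (SE 0.3, adjusted p = 0.852, limma). The interaction gave 0 calls (0%; 11 unadjusted), and Dbp had the smallest member p, 0.32 on the log2 scale (SE 0.596, adjusted p = 0.998, limma). The other 7 members lacked a peak in at least 1 mouse, and their absences fell on mice 4, 7 and 10, which belong to 3 of the conditions.

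Breadth was also compared between the marks in the 16 libraries, without centring. Of 796 genes with both marks in all mice 137 differed (17.2%), 125 with broader H3K4me3 and 12 with broader H3K27ac. The 3 members were among the genes without a call, and their median difference was −0.21 (H3K4me3 minus H3K27ac, log2) where all genes had 0.45. Nr1d1 differed by −0.21 on the log2 scale (SE 0.257, adjusted p = 0.574, limma), Per1 by −0.22 on the log2 scale (SE 0.306, adjusted p = 0.613, limma) and Dbp by 0.14 on the log2 scale (SE 0.374, adjusted p = 0.814, limma). With the mouse as a block, 285 genes were called and again 0 members. When an absent peak counted as 0 bp, so that all 10 members entered, H3K4me3 was called broader at Clock, Arntl and Cry1, by 1.69, 2.31 and 2.14 on the log2(bp + 100) scale. These were 3 of 10 members, where 5339 of 8630 genes (61.9%) were called under this setting. Of the 10 members, 7 then had broader H3K4me3 and 3 broader H3K27ac, with a median difference of 1.16 where all genes had 1.49. Without mouse 7, by contrast, the 4 members that entered had a median of −0.23 on the log2 scale and all genes 0.67.

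Distal acetylation was compared by presence. A region was said to follow temperature or diet when all 4 mice of one level had a peak and none of the other. None of the 44 member regions followed temperature, against 156 of 36149 (0.432%), of which 155 were those of the cold mice. None followed diet, against 36 (0.0996%), all present on NCD. With 1 exception allowed, 1 of the 44 (2.27%) followed temperature and 2 (4.55%) followed diet, against 1657 (4.58%) and 627 (1.73%) of all 36149. They are named here after their values were seen. The first, 5091 to 5816 bp inside Nr1d1, was acetylated in the cold mice 4, 5 and 11. One of the others, from −5043 to −4701 bp at Per1, was listed in the HFD mice 8, 10 and 11, and the other, 4032 to 5436 bp inside Nr1d2, in the 4 NCD mice and mouse 8. The first lacked mouse 10 and the second mouse 7, mice with short lists.

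Another 20 genes of the pathway were read the same way. They include the CLOCK paralogue Npas2, the ROR receptors that activate Arntl, the D-box factors Tef, Hlf and Nfil3, the repressors Ciart, Bhlhe40 and Bhlhe41, and the kinases and ubiquitin ligases that set the life of PER and CRY. H3K4me3 was at the start of 17 of 20 in all 8 mice, and at Ciart, Fbxl21 and Npas2 in 7. H3K27ac was at 1 of 20 in all 8 mice (Bhlhe40), and at Npas2 and Fbxl21 in none. Of the 17 tested for H3K4me3, 0 passed for cold, diet or interaction. For HFD 4 were higher and 13 lower, but 13 higher and 4 lower with list length as a covariate. For cold 12 were higher and 5 lower, but 0 higher and 17 lower with that covariate. Without mouse 7 all 20 were tested and 1 was called for HFD, where 110 of 11712 genes (0.939%) were called.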

How the data were processed

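ChIP-seq of 4 histone marks in iBAT of 8 mice gave 32 peak lists. The submitters' processing notes name cutadapt, Bowtie2, deepTools, MACS2 and GRCm38. The sources used here state neither versions nor the threshold for a peak. The lowest −log10 q-value in any list was 1.301, in H3K27ac of mouse 11. The authors called peaks per library and deposited the fold enrichment as a ratio, the −log10 p-value and −log10 q-value, a score and the summit of each peak. The lists hold no read depth, and the 8 inputs were not used here. Fold values were used only as percentiles within a list or as ranges, and no floor or counting interval was given.

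Start sites were those of protein-coding transcripts in GENCODE M21 basic. Distal peaks lay more than 1000 bp from the start of every transcript, coding or not. Peaks were merged, and breadth was the summed length of merged peaks that touched 1000 bp on either side of any start site of a gene. Genes with a peak in every library entered limma 3.58.1 (R 4.3.3) on log2 bp, centred on the library median, with temperature and diet as terms, and separately with their interaction; adjusted p is by the Benjamini-Hochberg method with a threshold of 0.05. The procedure was tested on simulated data. The 2 marks were compared over 16 libraries; mouse numbers name the same animal for each mark, so the mouse was tried as a block. All peaks lay within the 21 chromosomes of the reference, and 32851 of 32851 RefSeq promoters equalled its sequence.

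The members, gene lists and motifs were chosen with earlier results of these data known. Statistics are printed for the 2 members with the smallest p for each mark and factor, 1 for each interaction and the 3 in the comparison of marks; distal regions are named when present in at least 6 of 8 mice. Alternatives varied the start-site distance (500 and 2000 bp), summit, −log10 q (at least 5), peak merging, absent peaks, centring, list length, and each mouse left out. Presence without mouse 7 was added after seeing the data.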

Additional observations from a re-analysis of the deposited data

Results flagged for a closer look

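In 4 of 48 groups of 4 mice (each member, mark and level of temperature or diet with a peak in all 4), 1 mouse stood apart from its group by Dixon's criterion at the 95% level; chance gives about 1 in 20. Arntl H3K4me3 breadth in the cold mice was 1692 bp in mouse 10 and 2128 to 2198 bp in the others. For Cry1 H3K4me3 in the warm mice, mouse 7 had 614 bp and the highest mouse 2553 bp. For Nr1d2 H3K4me3 in the warm mice, mouse 7 had 817 bp and the highest 2431 bp. Per1 H3K27ac in the warm mice was 1941 bp in mouse 7 and up to 5891 bp in the others. Mouse 7 has the shortest list of both marks, and the part of list length in these values was not tested.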

How the results depend on the processing

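Of the counts that answer a comparison, 130 kept their size under an alternative and 7 did not; of the fitted differences of named members, 183 kept their direction and side of the threshold and 20 reversed. Members called for the H3K4me3 interaction changed in number only without mouse 8, a fit with mouse 7 alone for warm HFD. With an absent peak as 0 bp, 3 of 10 were called between the marks, against 61.9% of the 8630 genes tested there. Of 44 regions 1 followed temperature and 2 diet with 1 exception allowed (1657 and 627 of all 36149). With no exception, the counts ranged from 0 to 1 when a mouse was left out. Without mouse 10, 1 of 44 was present in the cold alone, against 938 of 35973 over the genome. Without mouse 7, 1 of 43 was present on HFD alone (genome 81 of 36014), and without mouse 8, 1 of 40 on NCD alone (102 of 34048). In the fit with the mouse as a replicate block, 285 genes and 0 members differed between the marks against 137 genes without it, and no member's call changed.

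Reversed log2 differences were, with list length as a covariate, −0.39 for Clock (H3K4me3, cold), 0.0055 for Nr1d1 (H3K27ac, cold), −0.060 for Nr1d1 and −0.13 for Per1 (H3K27ac, HFD). Without centring, H3K27ac gave 0.071 for Dbp and 0.16 for Nr1d1 in the cold, and −0.19 for Nr1d1 and −0.43 for Per1 on HFD. By peak summit, H3K27ac gave 0.10 for Dbp in the cold and −0.52 for Per1 on HFD, and Per1 gave 0.13 between the marks. The longest single peak gave −0.077 for Per1 (H3K27ac, HFD) and −0.066 for the Dbp H3K27ac interaction, which was −0.26 with 2000 bp. With 2000 bp Dbp gave −0.10 between the marks, and with an absent peak as 0 bp Nr1d1 gave 0.058 (H3K27ac, cold). Leaving out 1 mouse gave ranges of −0.059 (without mouse 7) to 0.42 for Clock (H3K4me3, cold), −0.70 to 0.11 (without mouse 7) for Nr1d1 (H3K27ac, cold), −0.062 (without mouse 4) to 0.70 for the Dbp H3K27ac interaction and −0.030 (without mouse 7) to 0.25 for Dbp between the marks. None of these was past the threshold, and the cause was not tested.

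Without centring the median of all genes moved to −0.14 (H3K4me3, HFD), 0.45 and −0.61 (H3K27ac, cold and HFD) and 0.79 and 0.58 (interactions, H3K4me3 and H3K27ac); with list length it was −0.31 and 0.26 (H3K4me3, cold and HFD). Genes called for HFD in H3K4me3 went from 1 to 110 without mouse 7, 6 without mouse 11, 5 with the longest peak and 3 with absent peaks as 0 bp. Interaction calls rose without mouse 8, where mouse 7 alone stood for warm HFD. H3K27ac calls in the cold went from 2 to 8 with the longest peak. Between the marks they ranged from 44 without mouse 1 to 5339 with absent peaks as 0 bp, with 64 without mouse 10, 2025 without mouse 7 and 83 at −log10 q of at least 5. Short lists limit any statement that a mark is absent.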
